A study of Mus musculus with 7 samples.

Results

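Neutrophils carry their killing proteins in granules that are filled one after another as the cell matures in the marrow. Primary granules, made in promyelocytes, hold myeloperoxidase and the serine proteases. Secondary granules, made later, hold lactoferrin, cathelicidin and lipocalin. The cytosol of the mature cell is rich in the calcium-binding pair *S100a8* and *S100a9*, which monocytes also make, and *Lcn2* is made by hepatocytes in the acute phase response as well as by neutrophils.

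The genes described are the 10 neutrophil and granule genes *S100a8*, *S100a9*, *Elane*, *Mpo*, *Prtn3*, *Ltf*, *Camp*, *Ngp*, *Lcn2* and *Csf3r*, chosen by the gene name that the array gives its probes. They had 12 probes, and 11 of them passed the filter on dim signal, so that each of the 10 genes was tested, among 18771 tested genes in all. RNA from whole livers was measured on 7 arrays, 1 for each mouse. Rbpj-/- mice (n = 3) carried AlfpCre and 2 floxed *Rbpj* alleles, and Rbpj+/+ mice (n = 4) carried the same floxed alleles without AlfpCre. All were untreated and 4 weeks old on a C57BL/6J background. AlfpCre joins albumin and alpha-fetoprotein control elements and acts in the cells that come from hepatoblasts, that is hepatocytes and bile duct cells, so the blood cells that make most of these genes are not its target. The labels give the tissue as liver, and the hepatocyte genes *Alb* and *Ttr* were detected on every array. In whole liver, a change in the number of neutrophils and a change in the RNA of each neutrophil cannot be told apart.

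All 7 arrays lay on 1 slide and differed in the signal of dim probes. Between 41.11% and 64.94% of the probes were well above background, with the highest shares on Rbpj-/-_N3 and Rbpj+/+_1156. No spot was saturated. The Rbpj+/+ arrays filled one row of the slide and the Rbpj-/- arrays the other, so row and genotype cannot be told apart. Levels are log2 intensities minus the 75th percentile of the array, so 0 is the level of that percentile, and they are compared between arrays for 1 probe at a time. A gene was called at an adjusted p under 0.1 in limma with Benjamini-Hochberg adjustment over all tested probes.

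The promoters of the members that rose are shown, with that of *Elane* as a primary granule gene that did not, so that the start regions of both kinds can be read side by side. Each runs from 250 bases before the gene start to 50 bases after it, in RefSeq on build GRCm38.p6, and all 10 members had an entry. *Lcn2* is at chr2:32387690-32387989 on the minus strand, *S100a8* at chr3:90668821-90669120 on the plus strand, *S100a9* at chr3:90695672-90695971 on the minus strand and *Elane* at chr10:79886062-79886361 on the plus strand. Capitals mark matches, on either strand, to TTGCNNAA, a core of the C/EBP motif, and to GAGGAA, a core of the PU.1 motif.
Lcn2: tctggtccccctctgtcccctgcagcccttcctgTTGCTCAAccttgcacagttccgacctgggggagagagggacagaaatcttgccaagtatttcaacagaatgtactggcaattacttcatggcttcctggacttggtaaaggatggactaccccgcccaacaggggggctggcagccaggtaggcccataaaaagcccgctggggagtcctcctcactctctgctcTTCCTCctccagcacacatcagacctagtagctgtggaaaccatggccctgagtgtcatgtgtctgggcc
S100a8: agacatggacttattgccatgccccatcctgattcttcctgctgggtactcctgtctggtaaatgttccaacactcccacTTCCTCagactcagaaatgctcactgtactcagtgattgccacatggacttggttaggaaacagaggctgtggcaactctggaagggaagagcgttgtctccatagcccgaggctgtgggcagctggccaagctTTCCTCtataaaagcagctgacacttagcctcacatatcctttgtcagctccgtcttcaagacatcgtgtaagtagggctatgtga
S100a9: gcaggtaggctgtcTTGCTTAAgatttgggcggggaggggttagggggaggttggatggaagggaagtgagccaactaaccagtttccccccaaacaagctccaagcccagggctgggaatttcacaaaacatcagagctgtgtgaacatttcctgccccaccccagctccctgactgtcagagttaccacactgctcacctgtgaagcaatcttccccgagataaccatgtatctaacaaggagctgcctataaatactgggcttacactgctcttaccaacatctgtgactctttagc
Elane: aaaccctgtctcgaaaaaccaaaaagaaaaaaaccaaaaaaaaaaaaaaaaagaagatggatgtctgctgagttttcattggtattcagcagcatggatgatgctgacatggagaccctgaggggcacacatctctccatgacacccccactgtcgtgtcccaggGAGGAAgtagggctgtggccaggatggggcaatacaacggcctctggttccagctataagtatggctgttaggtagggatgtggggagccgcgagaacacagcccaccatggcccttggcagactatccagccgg

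C/EBP and PU.1 factors are known regulators of granulocyte genes. The C/EBP letters were in the promoters of 4 of the 10 members (*Lcn2*, *S100a9*, *Ltf* and *Ngp*), against 10.76% of 27018 mouse promoters of the same length. The PU.1 letters were in 7 of 10, against 28.32%. Of the members called higher, *Lcn2* held both, *S100a8* held the PU.1 letters at positions -170 and -36, and *S100a9* held the C/EBP letters at -236, counted from the gene start. All 3 primary granule members held the PU.1 letters and none the C/EBP letters. The NF-kB consensus was in 0 of the 10 and in 4.35% of all promoters. No match overlapped another in the sequences shown, and a match of letters is not a measured binding site.

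Of the 10 members, 3 were higher in Rbpj-/- liver (*Lcn2*, *S100a8* and *S100a9*), 2 were lower (*Elane* and the probe named *Csf3r*) and 5 were not called (*Mpo*, *Prtn3*, *Ltf*, *Camp* and *Ngp*). Of all tested genes 34.2% were called, with 14.6% higher and 19.6% lower, so the count of 5 called members in 10 is read against a genotype difference that reached much of the array. Those same 5 members had no overlap between genotypes, as did 36.5% of all tested genes. The 5 called members were above background on all 7 arrays, while *Mpo*, *Ltf* and *Ngp* passed the filter through the Rbpj-/- arrays alone. The members had a median log2 fold change of 1.05, against -0.13 for the whole tested set.

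**Figure D1:**
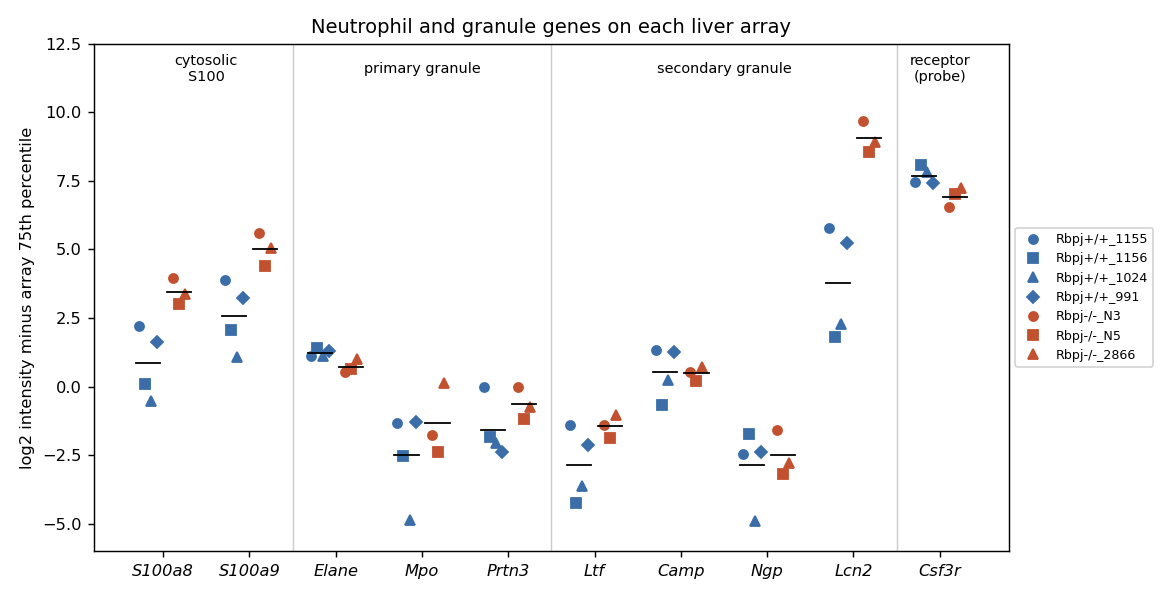
Normalized log2 level of each member (x axis) on each of the 7 liver arrays, as log2 intensity minus the array's 75th percentile (y axis). Each symbol is 1 mouse, blue for Rbpj+/+ and red for Rbpj-/-, and the line is the group mean. Heights can be compared between arrays within a gene and not between genes. *Lcn2*, *S100a8* and *S100a9* are above all Rbpj+/+ mice in all 3 Rbpj-/- mice, while *Mpo*, *Prtn3*, *Ltf*, *Camp* and *Ngp* overlap.

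*S100a8* and *S100a9* encode the subunits of calprotectin, the most abundant cytosolic protein of neutrophils. The *S100a8* probe (mm9, chr3:90473778-90473837) read 2.22 in Rbpj+/+_1155, 0.08 in Rbpj+/+_1156, -0.54 in Rbpj+/+_1024 and 1.61 in Rbpj+/+_991. It read 3.98 in Rbpj-/-_N3, 3.02 in Rbpj-/-_N5 and 3.39 in Rbpj-/-_2866. The lowest Rbpj-/- mouse was above the highest Rbpj+/+ mouse, and the 4 Rbpj+/+ mice were spread more widely than the 3 Rbpj-/- mice. The difference was 2.62 on the log2 scale (SE 0.62), a 6.14-fold higher level (limma, adjusted p = 0.0186). The exact two-sided permutation test gave p = 0.0571, where the smallest p that 35 splits of the arrays allow is 0.0286.

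The *S100a9* probe (mm9, chr3:90496573-90496632) read 3.89, 2.05, 1.08 and 3.23 in the Rbpj+/+ mice, in that order, which holds for all values given per mouse, and 5.62, 4.40 and 5.04 in the Rbpj-/- mice. The groups did not overlap, and from highest to lowest the 7 mice came in the same order as for *S100a8*. *S100a9* was 2.46 higher on the log2 scale (SE 0.62), or 5.49-fold (limma, adjusted p = 0.0232), with an exact permutation p of 0.0571. With both Rbpj-/-_N3 and Rbpj+/+_1156 left out, the arrays with the brightest dim probes, neither S100 gene was called. Macrophage and monocyte genes moved with these 2 genes: 9 of 12 were called higher, and the mean level of the 12 lay between 2.02 and 2.51 in Rbpj+/+ and between 3.87 and 4.25 in Rbpj-/- mice. The part of monocytes in the S100 signal was not tested.

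None of the 3 primary granule members was called higher, though the estimates for *Mpo* and *Prtn3* were positive with wide intervals. *Elane* encodes neutrophil elastase, the gene mutated in many cases of severe congenital neutropenia. Its probe (mm9, chr10:79350902-79350961) read 1.11, 1.41, 1.10 and 1.29 in Rbpj+/+ mice and 0.51, 0.65 and 1.01 in Rbpj-/- mice. All 3 Rbpj-/- mice were below all 4 Rbpj+/+ mice, and the SD of 0.15 in Rbpj+/+ mice was the smallest of the 10 members. The difference of -0.50 (SE 0.20) passed the threshold narrowly (limma, adjusted p = 0.0979; exact permutation p = 0.0286). Under 13 of 16 alternatives *Elane* was no longer called, with log2 fold changes from -0.65 to -0.26.

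*Mpo* encodes myeloperoxidase, which makes hypochlorous acid. One *Mpo* probe (mm9, chr11:87617840-87617899) read -1.32, -2.53, -4.88 and -1.31 in Rbpj+/+ mice and -1.77, -2.38 and 0.12 in Rbpj-/- mice. It was well above background in 3 of 4 Rbpj+/+ and 3 of 3 Rbpj-/- mice. The groups overlapped, with Rbpj-/-_2866 alone above every Rbpj+/+ mouse, and the log2 fold change was 1.16 (95% interval -0.87 to 3.20; limma, adjusted p = 0.369). It was 0.37 without Rbpj+/+_1024, 0.43 without Rbpj-/-_2866 and 0.14 with normexp background correction. The other *Mpo* probe (mm9, chr11:87615121-87615180) was above background on 1 array, Rbpj-/-_N3, and was not tested.

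*Prtn3* encodes proteinase 3, a serine protease and the neighbour of *Elane*. Its probe, which the array leaves unmapped, read -0.01, -1.85, -2.08 and -2.38 in Rbpj+/+ mice and -0.03, -1.18 and -0.75 in Rbpj-/- mice. Rbpj+/+_1155 read just above the highest Rbpj-/- mouse, and the other Rbpj+/+ mice were lower than all Rbpj-/- mice. The log2 fold change was 0.93 (95% interval -0.30 to 2.16; limma, adjusted p = 0.241). Without Rbpj+/+_1155 it was 1.45 (limma, adjusted p = 0.0203).

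Among the secondary granule members, *Lcn2* differed far more than the rest. *Lcn2* encodes lipocalin 2, which binds bacterial siderophores and so withholds iron. Its probe (mm9, chr2:32240199-32240258) read 5.80, 1.79, 2.28 and 5.26 in Rbpj+/+ mice and 9.67, 8.57 and 8.94 in Rbpj-/- mice. The Rbpj+/+ mice fell far apart, with Rbpj+/+_1155 and Rbpj+/+_991 well above the other pair, and still lay below all Rbpj-/- mice. The difference was 5.28 on the log2 scale (SE 0.94; 95% interval 3.15 to 7.41), a 38.8-fold higher level (limma, adjusted p = 0.00643; exact permutation p = 0.0286). *Lcn2* was called under all 16 alternatives, with log2 fold changes from 4.31 to 5.95.

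*Lcn2* is also an acute phase gene, and genes of that response moved in part with it. Of 11 acute phase genes of hepatocytes, 5 were called higher and 1 lower, with a mean level over the 11 between 5.73 and 7.36 in Rbpj+/+ and between 6.94 and 7.97 in Rbpj-/- mice. The count called higher fell to 2 without Rbpj+/+_1156, Rbpj+/+_1024, Rbpj+/+_991, Rbpj-/-_N3 or Rbpj-/-_2866, each left out alone, and was 8 with normexp. *Saa1*, a serum amyloid A, read 8.58, 3.94, 5.26 and 6.19 in Rbpj+/+ mice and 9.10, 7.63 and 9.15 in Rbpj-/- mice, a log2 fold change of 2.64 (limma, adjusted p = 0.0723). Its call was lost when any 1 mouse other than Rbpj+/+_1155 was left out. Rbpj+/+_1155 was thus the highest Rbpj+/+ mouse for *Saa1* as it was for *Lcn2*, *S100a8* and *S100a9*. *Saa2* was not called (limma, adjusted p = 0.159), *Orm2* rose by 1.64 (limma, adjusted p = 0.00838), and *Hp*, haptoglobin, was lower at -0.58 (limma, adjusted p = 0.0501). The direction of *Hp* turned to 0.03 with quantile normalization and to 0.05 in the deposited series values. The part of hepatocytes in the *Lcn2* signal was not tested.

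*Ltf* encodes lactoferrin, an iron-binding protein of secondary granules. Its probe (mm9, chr9:110942873-110942932) read -1.39, -4.26, -3.62 and -2.13 in Rbpj+/+ mice, of which 2 of 4 were above background, and -1.40, -1.88 and -1.06 in Rbpj-/- mice. The groups overlapped through Rbpj+/+_1155. The log2 fold change of 1.41 (95% interval -0.01 to 2.83) was not called (limma, adjusted p = 0.133), and without Rbpj+/+_1155 it was 1.90 (limma, adjusted p = 0.0384).

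*Camp* encodes the cathelicidin precursor. One *Camp* probe (mm9, chr9:109749911-109749970) read 1.34, -0.69, 0.22 and 1.26 in Rbpj+/+ mice and 0.54, 0.19 and 0.70 in Rbpj-/- mice. The Rbpj-/- mice lay inside the range of the Rbpj+/+ mice, and the log2 fold change was -0.06 (SE 0.47; limma, adjusted p = 0.941). The other *Camp* probe, unmapped on the array, read 0.03, -2.75, -1.43 and 0.41 in Rbpj+/+ mice and -0.46, -0.70 and -0.33 in Rbpj-/- mice, for a log2 fold change of 0.44 (limma, adjusted p = 0.659). Both overlap over 50 bases and differ at 2 of them, which are in capitals in the first 30 bases of the overlap, shown because both probes carry the name of 1 gene.
Camp, mapped probe: cagccAgagTagtaggcctgccttggcctg
Camp, unmapped probe: cagccGgagCagtaggcctgccttggcctg

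The order of the mice was the same on both *Camp* probes within Rbpj+/+ except for the highest pair, and neither probe was called. *Ngp*, neutrophilic granule protein, is a cathelicidin relative. Its unmapped probe read -2.45, -1.73, -4.91 and -2.39 in Rbpj+/+ mice and -1.59, -3.19 and -2.77 in Rbpj-/- mice. The groups overlapped in part, with Rbpj-/-_N3 above and Rbpj+/+_1024 below all mice of the other genotype, and the log2 fold change was 0.35 (95% interval -1.25 to 1.95; limma, adjusted p = 0.744).

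*Csf3r* encodes the receptor for G-CSF, the growth factor of neutrophils. The probe named *Csf3r* lies at chr19:60157892-60157951 in the array's mm9 annotation, whereas RefSeq places the gene on chromosome 4. It shared runs of at least 16 bases with 10 probes named for other genes. A stretch of 30 bases inside those runs is shown, since it bears on what the probe measured.
Csf3r probe: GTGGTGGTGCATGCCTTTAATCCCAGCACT

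These letters resemble the B1 family of interspersed repeats, which is present in very many copies in the mouse genome. The probe read 7.45, 8.08, 7.82 and 7.42 in Rbpj+/+ mice and 6.53, 7.03 and 7.23 in Rbpj-/- mice. All Rbpj-/- mice were lower, by -0.76 on the log2 scale (SE 0.25; limma, adjusted p = 0.0564; exact permutation p = 0.0286), and the call was lost under 10 of 16 alternatives. These values belong to the probe, and the level of the receptor gene was not settled by them. Without this probe, 3 of 9 members were higher and 1 was lower.

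**Figure D2:**
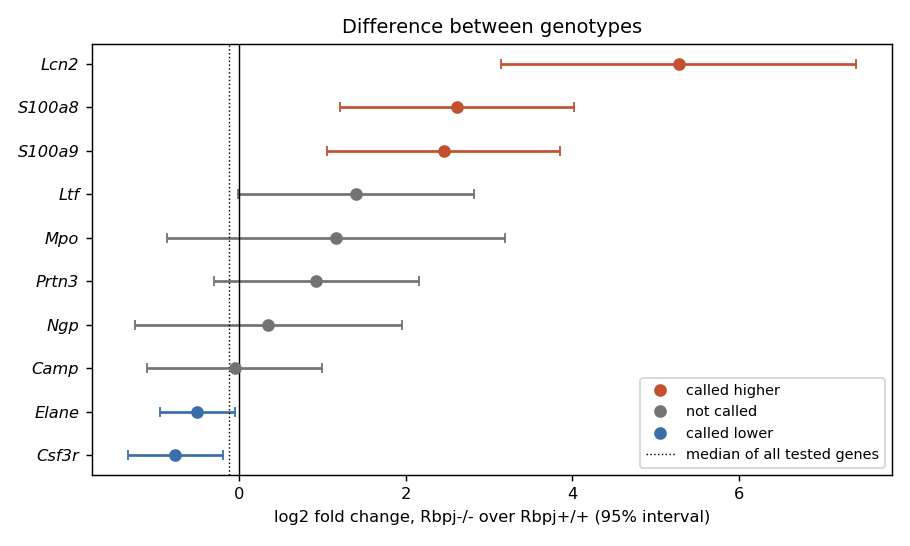
Log2 fold change of each member, Rbpj-/- over Rbpj+/+ (x axis), with its 95% interval from limma. Red marks members called higher, blue members called lower and grey members not called, and the dotted line at -0.13 is the median of all tested genes. *Lcn2* stands at 5.28 and the S100 pair near 2.5, while the intervals of the 5 members not called include 0.

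The primary and the secondary granule classes were set against each other on each array. Every gene was centred on its mean over the 7 arrays, the centred log2 values of a class were averaged, and the secondary class (*Ltf*, *Camp*, *Ngp*, *Lcn2*) was subtracted from the primary class (*Elane*, *Mpo*, *Prtn3*). This difference was 0.23, 1.36, 0.68 and -0.18 in Rbpj+/+ mice, with a mean of 0.52 ± 0.66 (SD, n = 4), and -1.11, -0.77 and -0.20 in Rbpj-/- mice, with a mean of -0.70 ± 0.46 (SD, n = 3). All 3 Rbpj-/- mice were below the Rbpj+/+ mice, though Rbpj-/-_2866 by very little. The mean log2 fold change was 0.53 over the primary members and 1.75 over the secondary members.

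That gap depended on *Lcn2*, the only member of the granule classes that was left out. With *Lcn2* left out, the secondary members had a mean log2 fold change of 0.57, and the primary minus secondary difference between genotypes moved from -1.22 to -0.039. Without *Lcn2* the difference was 0.02 ± 0.39 (SD, n = 4) in Rbpj+/+ mice and -0.02 ± 0.40 (SD, n = 3) in Rbpj-/- mice, and the groups overlapped. Leaving out *Lcn2* was chosen after its value was seen.

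**Figure D3:**
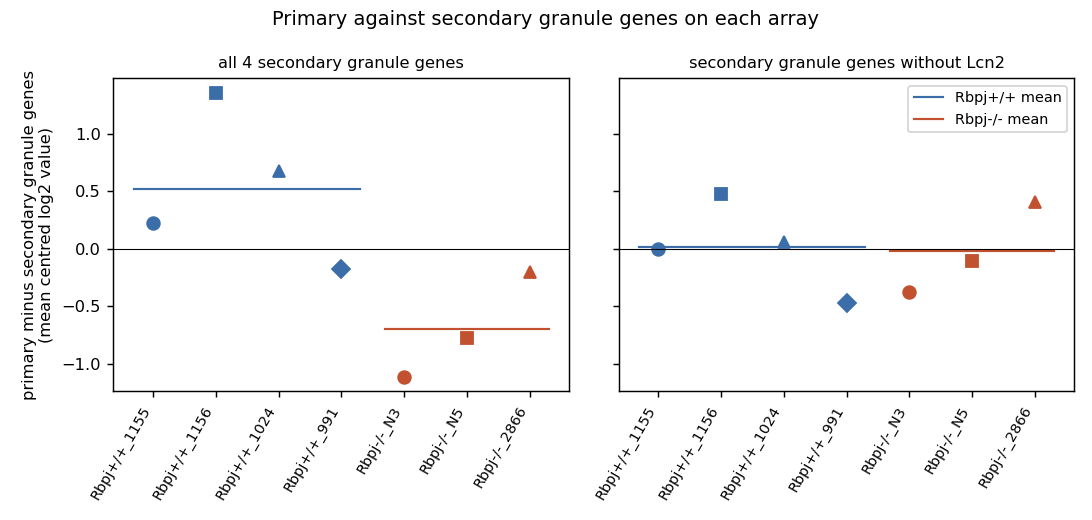
Mean centred log2 value of the primary granule members minus that of the secondary granule members (y axis) on each array (x axis), with all 4 secondary genes at left and without *Lcn2* at right. Symbols are mice, blue for Rbpj+/+ and red for Rbpj-/-, and lines are group means. The group means are 0.52 and -0.70 at left and 0.02 and -0.02 at right.

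Other genes of the primary granule were called higher in 4 of 6 cases, with a median log2 fold change of 1.39. *Lyz2*, the lysozyme of neutrophils and macrophages, was 2.85 higher (limma, adjusted p = 0.00128), and *Srgn*, the proteoglycan that packs granule proteases, was 1.68 higher (limma, adjusted p = 0.00282). The other 2 genes called, *Gusb* and *Ctsc*, encode lysosomal enzymes that many cells make. *Ctsg*, cathepsin G, which is close to *Elane* and *Prtn3* in function, had a log2 fold change of 0.77 (limma, adjusted p = 0.375) and overlapped between genotypes. *Serpinb1a*, an inhibitor of these proteases, was likewise not called (0.93; limma, adjusted p = 0.318). *Prss57* was above background in 2 of 4 Rbpj+/+ and 0 of 3 Rbpj-/- mice and was not tested.

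Of 7 other secondary and tertiary granule genes, 5 were called higher and 1 lower. Some of them passed the filter through the Rbpj-/- arrays alone. Of the 5 above background on all 7 arrays, 3 were called higher (*Slpi*, *Chil3* and *Cybb*) and 1 lower. The remaining gene of these 5, *Pglyrp1*, was not called (-0.31; limma, adjusted p = 0.623) and overlapped between genotypes. *Slpi*, an inhibitor of elastase that epithelia also make, read 2.90, -1.14, 2.03 and 3.75 in Rbpj+/+ mice and 6.97, 6.48 and 5.51 in Rbpj-/- mice, a log2 fold change of 4.44 (limma, adjusted p = 0.0154). *Chil3*, a chitinase-like protein of neutrophils and macrophages, was 3.23 higher (limma, adjusted p = 0.0104), and *Mmp8*, neutrophil collagenase, was 2.01 higher (limma, adjusted p = 0.0399) with 1 of 4 Rbpj+/+ mice above background. The *Mmp8* call was lost without Rbpj+/+_1024 and without Rbpj-/-_N3, and its log2 fold change was 0.16 with normexp. *Mmp9*, gelatinase B, was above background in 0 of 4 Rbpj+/+ and 2 of 3 Rbpj-/- mice and was not tested. The gene called lower was *Itgam*, an integrin chain, on a probe that shared runs of 16 bases with 117 probes of other genes. A second *Itgam* probe without such runs had a log2 fold change of 0.95 (limma, adjusted p = 0.119).

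Of the mature neutrophil genes, 7 were above background on all 7 arrays, and 6 of these were called higher, with a median log2 fold change of 1.44. The filter also let through 9 genes that were above background in all Rbpj-/- mice and not in every Rbpj+/+ mouse, a choice that favours higher calls, and with them 14 of 16 were called higher. With normexp the count was 10 of 16 and the median 0.70. The array held 24 genes of this list. Those not tested, *Cxcr1*, *Clec4e*, *Mmp25*, *Stfa3*, *BC117090*, *Padi4*, *Ptafr* and *Cxcl2*, did not pass the filter. *Stfa2l1* and *BC100530*, cystatins of the stefin A cluster, were above background in 0 of 4 Rbpj+/+ and 3 of 3 Rbpj-/- mice. Their levels were 6.94-fold and 6.47-fold higher when taken against the lowest signal well above background on each Rbpj+/+ array. These genes passed the filter through the Rbpj-/- arrays alone, and with normexp their log2 fold changes were 0.84 and 0.86. The stefin genes lie in a cluster of close copies, so their probes may read one another. The exceptions were *Cxcr2*, the chemokine receptor of neutrophils (1.03; limma, adjusted p = 0.414), and *Trem1*, on a probe that shared runs with 19 probes of other genes. *Ly6g* was not analysed here. In the same livers 3 of 10 members were called higher, and the difference between these lists was not tested.

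Of 11 granulocyte precursor genes on the array, 7 were tested, of which 5 were called higher and 2 lower. *Gfi1*, *Myb*, *Ms4a3* and *Fcnb* did not pass the filter. The genes called included *Cebpa*, *Kit*, *Cd34* and *Flt3*, and the part of other liver cells in their signal was not tested. Without Rbpj-/-_N3, 0 were called higher and 1 lower, and with normexp 3 were higher and 1 lower with a median of 0.001. *Cebpe*, the factor needed for secondary granule genes, read 2.84, 3.08, 2.03 and 2.76 in Rbpj+/+ mice and 0.12, -0.09 and 0.37 in Rbpj-/- mice. No mouse of one genotype reached the range of the other, and the log2 fold change of -2.54 (limma, adjusted p = 0.000898) was called under all 16 alternatives. *Spi1*, which encodes PU.1, was above background in 0 of 4 Rbpj+/+ and 3 of 3 Rbpj-/- mice (limma, adjusted p = 0.0303), and its direction turned with another background correction, to -0.034, while the call was lost without Rbpj-/-_N3. *Gfi1*, a repressor needed for neutrophil development, was above background on 0 of 7 arrays.

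Of the growth and recruitment signals, 2 were above background on all 7 arrays, of which *Cxcl1* was called higher and *Cxcl12* lower. A second *Cxcl12* probe, also above background on all 7 arrays, had a log2 fold change of -0.15 and was not called (limma, adjusted p = 0.706). The other 4 tested genes, all called higher, passed the filter through the Rbpj-/- arrays alone. *Cxcl1*, a neutrophil chemoattractant, read 0.16, -0.31, -0.20 and 0.47 in Rbpj+/+ mice and 4.62, 5.39 and 1.72 in Rbpj-/- mice, a log2 fold change of 3.88 (limma, adjusted p = 0.00821). *Cxcl5*, a second ligand of the same receptor, was above background in 0 of 4 Rbpj+/+ and 3 of 3 Rbpj-/- mice. *Cxcl5* was 4.08-fold higher when taken against the lowest signal well above background on each Rbpj+/+ array. With normexp the log2 fold change of *Cxcl5* was 0.56. *Csf3*, which encodes G-CSF, was above background on 0 of 7 arrays. All 6 phagocyte oxidase genes were higher, with a median of 1.64, led by *Cybb* at 1.87 (limma, adjusted p = 0.00225) and *Ncf1* at 1.72 (limma, adjusted p = 0.00401).

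**Figure D4:**
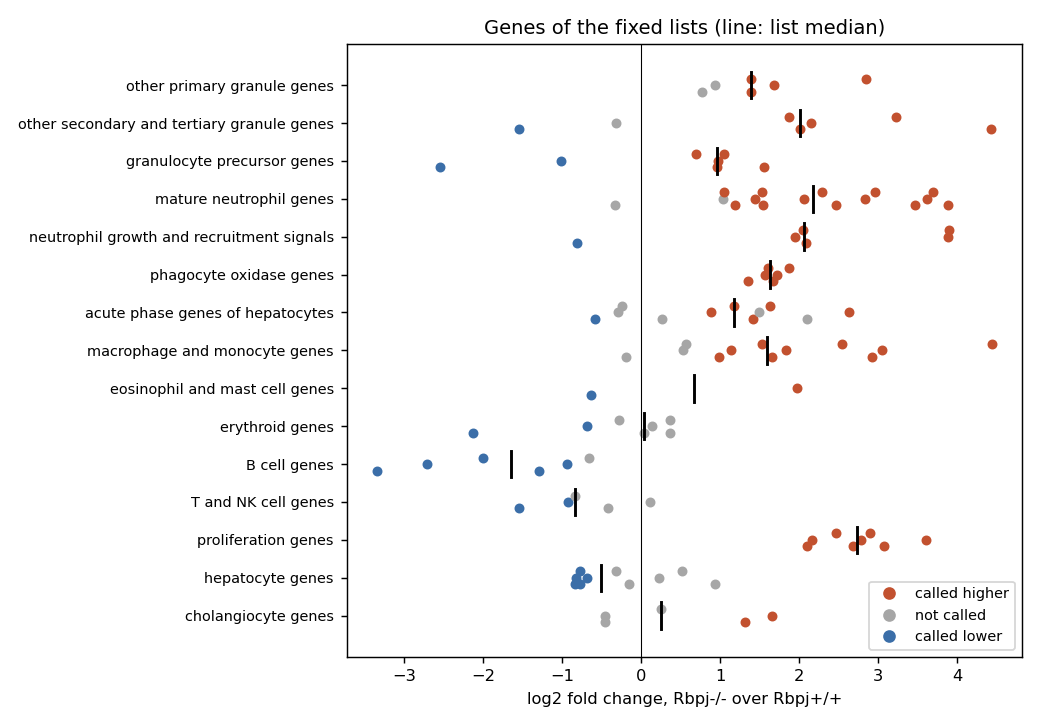
Log2 fold change, Rbpj-/- over Rbpj+/+ (x axis), of every tested gene of the fixed lists (y axis). Points are genes, red where called higher, blue where called lower and grey where not called, and the black line is the list median. Genes above background throughout 1 genotype alone are included, a choice that favours calls. The macrophage and monocyte genes have a median of 1.59 and the B cell genes -1.64.

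Genes of other cells moved as well. *Cd14* was 4.44 higher (limma, adjusted p = 0.00202) and *Cx3cr1* 3.05 higher (limma, adjusted p = 0.00251), both of monocytes and macrophages. Proliferation genes were higher in 8 of 8 cases, and in 6 of 6 above background on all 7 arrays. The largest changes were *Top2a* at 3.61 (limma, adjusted p = 0.00241) and *Bub1* at 3.08 (limma, adjusted p = 0.00166). Both were above background in 1 of 4 Rbpj+/+ mice and passed the filter through the Rbpj-/- arrays alone. Among the alternatives their lowest log2 fold changes were 1.19 and 0.69. B cell genes were lower in 5 of 6 cases, and in 2 of 3 above background on all 7 arrays. *Ms4a1* was lower at -3.34 (limma, adjusted p = 0.0143). It was above background in 1 of 3 Rbpj-/- mice and passed the filter through the Rbpj+/+ arrays alone. Among the alternatives its log2 fold change ranged from -4.41 to -0.955. T and NK cell genes were lower in 2 of 5 cases, *Cd4* at -1.54 and *Cd3e* at -0.92 (limma, adjusted p = 0.0109 and 0.0123). Of 7 erythroid genes 0 were higher and 2 lower, *Alas2* at -2.13 and *Ermap* at -0.68. Hepatocyte genes were lower in 5 of 10 cases, led by *Serpina1a* at -0.83 and *Apoa1* at -0.83. With quantile normalization 2 were higher and 1 lower, the median turned from -0.50 to 0.06, and neither gene was called. Of 5 cholangiocyte genes *Spp1* at 1.66 and *Sox9* at 1.32 were higher. Of 2 eosinophil and mast cell genes tested, *Siglecf* was called higher and *Tpsb2* was lower at -0.63, while *Epx* was above background on 0 of 7 arrays. *Siglecf* was above background in 0 of 4 Rbpj+/+ and 3 of 3 Rbpj-/- mice and passed the filter through the Rbpj-/- arrays alone. It was 1.75-fold higher when taken against the lowest signal well above background on each Rbpj+/+ array. With normexp the log2 fold change of *Siglecf* was -0.057. The part of these cells in the members' values was not tested.

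The genes whose pattern over the 7 arrays was nearest to each granule class were found by the root mean square difference of centred log2 values. For the primary class, the nearest named genes were *LOC102631757* at 0.25, *Grhpr* at 0.27, *1810026J23Rik* at 0.27 and *Ssh1* at 0.28, with a probe named by its region at 0.26. *Elane*, *Mpo* and *Prtn3* themselves lay 0.75, 0.85 and 0.63 from their own mean. The nearest genes were picked as the closest of all tested genes, so their smaller distances say nothing about the class. For the secondary class the nearest were a probe named by its region at 0.37, *Dhh* at 0.40, *S100a9* at 0.42, the transcript ENSMUST00000034808 at 0.43 and *Rpap3* at 0.44. *Ltf*, at 0.37, was the secondary member nearest to the class mean, and *Lcn2*, at 1.85, was the farthest. Without *Lcn2* in the class, the nearest were *Zswim1* at 0.26, *LOC102631757* at 0.28, *Klhdc9* at 0.29, *S100a2* at 0.29 and *Herc6* at 0.3. *S100a9* was not among these 5.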

How the data were processed

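Liver RNA of 7 mice was labelled with Cy3 and hybridised to Agilent mouse arrays, and the authors deposited the scanner output of Agilent Feature Extraction 10.7.3.1, whose processed signal is a background-subtracted intensity. The deposited series values are log2 intensities that the authors shifted to the 75th percentile and set to the median, and served as an alternative. Outlier spots and control probes were left out, spots of a probe were averaged, and log2 intensities were reduced by the array's 75th percentile. A probe was tested with limma 3.58.1 in R 4.3.3 if it stood well above background in all mice of at least 1 genotype (24548 probes). The tested probe of highest mean stood for a gene, and members are given by every probe. The number of arrays limits the precision. The script was tested on simulated data of 24512 probes, where 181 of 200 probes changed by 2 on the log2 scale were recovered with 17 false calls. Apart from the members, genes were named by 3 rules: a short list of neutrophil genes, the 2 largest changes among the called genes of each list, and the 5 genes nearest to each granule class. A few others were named after their values were seen. One gene that these rules name is not reported here. The members and lists were chosen with earlier results of these data known. Alternatives were background correction by normexp with an offset of 50, quantile normalization, another percentile, other filters, a threshold of 0.05, the mean of a gene's probes and leaving out each mouse. Added after seeing the data were leaving out both arrays with the brightest dim probes, and leaving out *Lcn2* from the secondary class.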

Additional observations from a re-analysis of the deposited data

Results flagged for a closer look

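*Cd14* in Rbpj+/+_991, at 0.64, and *Ms4a1* in Rbpj+/+_991, at -0.54, lay far above the other Rbpj+/+ mice by Dixon's criterion for 4 samples. No member met the criterion. Among 54 named genes examined, chance flags about 1 in 20 groups.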

How the results depend on the processing

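No paired analysis was possible because the genotypes share no replicate numbers. Of the members called higher, 3 remained the count under every alternative but 3: 1 without a filter for dim probes (*Lcn2*), 1 with both arrays with the brightest dim probes left out (*Lcn2*), and a range of 3 to 5 when single mice were left out, with 5 without Rbpj+/+_1155. The count called lower was 2, and 0 under normexp, the series values, a threshold of 0.05, quantile normalization, a percentile taken from detected probes, the test without a dim filter, and both bright arrays left out. It ranged from 0 to 2 when single mice were left out, 0 without Rbpj+/+_1024, Rbpj-/-_N3 or Rbpj-/-_N5. The primary minus secondary difference was -1.22 and moved to -0.039 without *Lcn2*; it ranged from -1.46 to -0.94 when single mice were left out and was -0.73 with both bright arrays left out. Some values changed sign. *Camp* was 0.04 with quantile normalization, 0.025 with the other percentile, 0.046 in the series values and 0.19 as the mean of its probes, and ranged from -0.46 to 0.21 when single mice were left out. *Ngp* was -0.27 with normexp and ranged from -0.33 to 0.73 when single mice were left out. *Hp* was 0.03 with quantile normalization and 0.05 in the series values. With normexp, *Ctsg* was -0.16, *Cxcr2* -0.006, *Dhh* -0.15, *Siglecf* -0.057, *Spi1* -0.034, *1810026J23Rik* -0.10, *LOC102631757* -0.22, *Ssh1* -0.26 and both probes named by region -0.32 and -0.14. *LOC102631757* ranged from -0.03 to 0.54 and *Ssh1* from -0.10 to 0.61 when single mice were left out. Calls of *Hp*, *Apoa1*, *Ermap*, *Saa1*, *Sox9*, *Dhh*, *Tpsb2*, *Mmp8* and *Spi1* were lost under several alternatives, single mice left out among them. The causes were not tested. The median log2 fold change of all tested probes was -0.12, -0.04 with quantile normalization and -0.28 without a dim filter. Without a dim filter, 9 of 16 mature neutrophil genes, 0 of 7 precursor genes and 1 of 11 acute phase genes were called higher, and 0 of 10 hepatocyte genes lower. With normexp, 3 hepatocyte genes were higher and 5 lower.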
